A study of Mus musculus with 8 samples.

Results

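DNA synthesis in S phase needs a polymerase machinery, a supply of deoxynucleotides, licensed origins and the enzymes that rebuild chromatin behind the fork. The genes described here are 43 genes of that apparatus outside the replicative helicase, chosen by name and found by the symbol of their Ensembl identifier among the 49315 genes counted. All 43 were matched to 1 identifier each and passed the filter on low counts, so none is missing below. They were read in 8 RNA sequencing libraries from hearts of mouse (Mus musculus) embryos at stage E18.5, late in gestation. The 4 mutant libraries came from hearts labelled CHD4 M195I/M195I, and the 4 control libraries from hearts labelled WT. CHD4 is the ATPase of the nucleosome remodelling and deacetylase complex, the labels name no Cre, transgene or treatment, and they do not name a strain or say how hearts were assigned to litters.

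Origins are licensed in G1, when the origin recognition complex, CDC6 and CDT1 load the MCM helicase, and geminin then blocks CDT1 so that no origin fires again. In S phase DNA polymerase alpha with its primase lays down primers, polymerase epsilon and polymerase delta extend them, and PCNA, loaded by replication factor C, holds the polymerases on the template. E2F factors drive transcription of most of these genes at the entry to S phase. In the heart, cardiomyocytes divide during fetal life and largely stop after birth.

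Depth was alike in both genotypes, at 18375951 to 20815388 counts per WT library and 18673488 to 21341235 per mutant library. The 43 genes took 0.163% to 0.184% of these counts in WT hearts and 0.198% to 0.225% in mutant hearts. Levels are CPM, counts scaled to a common library size, corrected by TMM, a factor that removes differences in library composition. Every log2 fold change is that of mutant over WT and carries the standard error of the quasi-likelihood fit of edgeR, and a gene counts as called where its p, adjusted by Benjamini-Hochberg, is under 0.05 over the 16372 genes tested. The p-values measure the spread between these libraries, which may be technical in part. Chd4 itself had a mean of 452 ± 6.37 CPM (SD, n = 4) over the WT libraries, and 482 ± 8.48 CPM (SD, n = 4) was the mutant value (0.09 ± 0.03, adjusted p = 0.094 in edgeR's test), and the counts do not show the mutated codon. Markers of cardiomyocytes were abundant in every library, with a summed level over 8 genes of 31957 to 35074 CPM in WT and 26974 to 32736 CPM in the mutants, and 2 of the 8 were called lower. The summed level of 9 erythroid markers was 2035 to 3894 CPM in WT and lower, at 1253 to 1974 CPM, in the mutants, without overlap, although none of its 8 tested genes was called. The 5 epicardial markers also did not overlap (254 to 295 CPM in WT and 202 to 246 CPM in mutants, 2 of 5 called lower). The summed levels of the other marker lists overlapped: endothelium at 1099.5 to 1179.8 and 1069 to 1168 CPM (6 genes, 1 higher and 1 lower), fibroblasts at 5938 to 7691 and 6437 to 7113 CPM (6 genes, 1 lower), macrophages at 58.8 to 81.2 and 64.6 to 81.3 CPM (6 genes, 1 higher), and lymphoid cells at 3.65 to 6.63 and 3.35 to 6.81 CPM (6 genes, 1 tested, none called). Lung and airway epithelium markers ranged from 1.16 to 777 CPM in sum with no call among 9 tested of 12, and 5 libraries held at least 10 CPM of Scgb3a2 (WT replicates 1, 3 and 4, mutant replicates 3 and 4). No marker was at 0 in every library, and the part of these cell types in the results below was not tested. Xist lay at 1.28 to 1.58 CPM in WT and at 1.53 to 1.92 CPM in mutants (0.30 ± 0.20, edgeR adjusted p = 0.36), while WT replicate 4 stood apart in Y-linked genes, with Ddx3y at 36.2 CPM against 68.5 to 80.5 CPM in the other libraries.

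Transcripts of the 43 genes were higher in the mutant hearts. Of the 43, 31 rose and none fell, where 5.75% of all tested genes rose and 7.49% fell. The median log2 fold change of the members was 0.30, a level 23.3% above WT, with a range from 0.07 to 0.54, against a median of 0.00 over all tested genes. At an unadjusted p under 0.05 the test of edgeR gave 38 members higher and 0 lower, and DESeq2 and limma-voom called 31 and 30 higher and 0 lower. In 29 of the 43 every mutant library lay above every WT library, which held for 8.80% of all tested genes. These genes share the same 8 libraries and are known to rise and fall together in the cell cycle, so the count is a description of the group and not of 43 independent observations. In bulk tissue, more cells in S phase and more transcript per cell cannot be told apart.

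**Figure D1:**
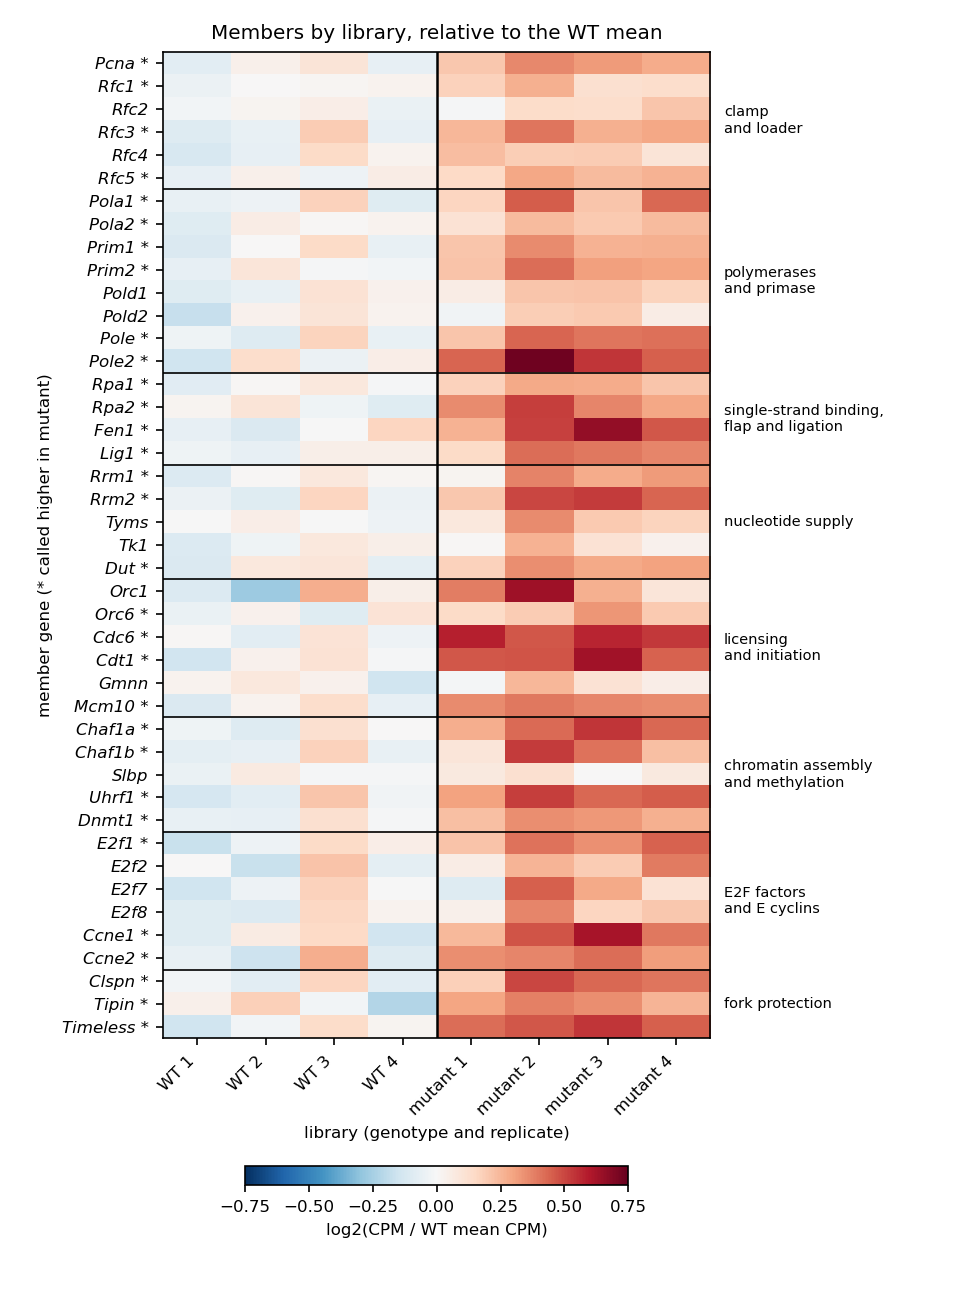
Level of each of the 43 members in each library as log2 of its CPM over the WT mean, with 1 column per library, 1 row per gene and rows grouped by role. A star marks the 31 genes called higher. Red tones fill most of the 4 mutant columns, with mutant replicate 1 the palest, and WT replicate 3 is the reddest of the 4 WT columns.

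Libraries of the same genotype differed in a shared way over these genes. Mutant replicate 1 was the lowest mutant library for 33 of the 43 genes and mutant replicate 2 the highest for 28. Among the WT libraries, replicate 3 was the highest for 31 genes and replicate 1 the lowest for 23. The number of members called higher was 24 without WT replicate 1 or mutant replicate 2, 35 without mutant replicate 1 and 27 without WT replicate 4, and it lay between 24 and 35 over all 8 libraries left out in turn. Within the 5 libraries rich in airway transcripts 27 members were higher (median 0.30), and within the other 3, where WT has 1 library, 16 were (median 0.33). In that smaller set the lone WT library has no spread of its own and is assumed to vary like the mutants, so its count has little weight. With the erythroid marker score as a covariate 15 members stayed called (median 0.25), and with Xist as a covariate 4 did, namely Cdc6, Cdt1, Dnmt1 and Timeless (median 0.32). Calls fell over all genes too, with 3.15% of tested genes higher with the erythroid score and 0.84% with Xist, against 5.75% without a covariate. Xist itself had only 23 to 40 reads per library. Both covariates move with genotype, the erythroid sum being lower and Xist mostly higher in the mutants, and their part in the result was not tested.

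The promoters of these genes were searched for the letters that E2F factors bind. RefSeq promoters (GRCm38.p6, from 250 bases before to 50 after each start) were at hand for 37 of the 43, not for Rfc2, Prim2, Pole, Gmnn, Ccne2 and Tipin. The letters searched were TTTCCCGC, TTTCGCGC, TTTGCCGC and TTTGGCGC on both strands, and 13 of 37 members (35.1%) held at least 1 match, against 525 of 11726 tested genes with a promoter (4.48%) and 2.26% of all 32851 promoters in the table. The same letters were in 5 of 7 helicase promoters (71.4%) and in 1 of 18 promoters of mitosis genes (5.56%). No match overlapped CCAAT or TTTGAA. The pentamer CCAAT, read by NF-Y, was in 21 of the 37 promoters (56.8%, against 42.1% of tested genes), in 7 of 7 helicase promoters and in 16 of 18 of mitosis genes (88.9%). TTTGAA, the core of the CHR element of mitotic genes, was in 5 of 37 (13.5%, against 14.2%), whereas 14 of 18 promoters of mitosis genes held it (77.8%). Of the 13 members with E2F letters 9 were called higher (median 0.34), and of the 24 without 18 were (median 0.26). A match is only a match of letters. Among members with the letters, Pold1, Orc1, E2f2 and E2f7 were not called, and their windows are not shown. Binding of E2F factors in these hearts was not tested. The windows of 30 bases around the match are shown for the 9 called genes only, so they were chosen by call. The 8 matched bases are in capitals, and each window is read 5′ to 3′ on the strand of its gene.
Cdc6 (chr11:98908002-98908031, plus strand, 138 bases before the start): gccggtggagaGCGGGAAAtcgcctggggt
Cdt1 (chr8:122568035-122568064, plus strand, 32 bases after the start): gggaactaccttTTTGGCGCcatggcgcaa
Pole2 (chr12:69228162-69228191, minus strand, 10 bases after the start): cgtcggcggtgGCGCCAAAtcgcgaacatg
Pola1 (chrX:93632275-93632304, minus strand, 138 bases before the start): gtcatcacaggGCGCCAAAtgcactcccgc
Rfc3 (chr5:151651200-151651229, minus strand, 10 bases before the start): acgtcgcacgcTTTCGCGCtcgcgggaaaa
Lig1 (chr7:13278841-13278870, plus strand, 26 bases after the start): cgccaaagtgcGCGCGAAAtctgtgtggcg
Clspn (chr4:126556990-126557019, plus strand, 21 bases after the start): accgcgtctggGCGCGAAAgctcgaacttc
Uhrf1 (chr17:56304117-56304146, plus strand, 185 bases before the start): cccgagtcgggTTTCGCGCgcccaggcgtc
Dnmt1 (chr9:20952574-20952603, minus strand, 33 bases after the start): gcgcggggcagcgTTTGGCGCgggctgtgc
The windows of Pole2 and Pola1 hold the letters GCGCCAAA, those of Cdt1 and Dnmt1 the same site on the other strand, and Lig1 and Clspn share GCGCGAAA. Dnmt1 held a further match elsewhere in its promoter. The window of Rfc3 holds a second match as well, GCGGGAAA, which stands in lower case there.

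Of the 6 licensing and initiation genes 4 rose, and Cdt1 and Cdc6 had the smallest adjusted p-values of the 43 genes. CDC6 and CDT1 bring the MCM ring to the origin, and ORC1 and ORC6 are subunits of the complex that marks it. Cdc6 was at 14.1, 13.3, 15.1 and 13.7 CPM in WT replicates 1 to 4 and at 21.1, 19.4, 20.9 and 20.3 CPM in mutant replicates 1 to 4. Every mutant library was above every WT library, with the highest WT value at 15.1 CPM and the lowest mutant value at 19.4 CPM (0.54 ± 0.07, adjusted p = 0.00012 in edgeR's test). Cdt1 was at 25.5, 28.8, 30.4 and 28.1 CPM in WT and 38.9, 39.1, 43.5 and 38.2 CPM in mutants, again without overlap (0.50 ± 0.06, edgeR adjusted p = 0.00011, the smallest among the members). Mcm10, which helps the loaded helicase to start unwinding, was scarcer, at 11.3, 12.4, 13.4 and 11.7 CPM in WT and 15.6, 16.003, 15.7 and 15.5 CPM in mutants. Its groups did not overlap either (0.37 ± 0.07, edgeR adjusted p = 0.0041). Orc6 rose by less (0.22 ± 0.06, edgeR adjusted p = 0.034). The test no longer passed when WT replicate 1, 2 or 3 or mutant replicate 2 or 3 was left out (adjusted p from 0.053 to 0.10).

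Geminin, which binds CDT1 and keeps it from licensing origins again, did not pass the test. Gmnn was at 37.97, 39.4, 38.1 and 33.6 CPM in WT and 36.8, 44.2, 40.2 and 38.6 CPM in mutants, and the groups overlapped (0.10 ± 0.06, 95% interval -0.05 to 0.26, edgeR adjusted p = 0.34). The count of Cdt1 over that of Gmnn in the same library, which no scaling can move, was 0.670, 0.731, 0.799 and 0.836 in WT and 1.06, 0.884, 1.08 and 0.990 in mutants. The ratio of Cdc6 to Gmnn was 0.372, 0.339, 0.397 and 0.409 in WT and 0.574, 0.440, 0.519 and 0.527 in mutants. For both ratios the 4 mutant libraries stood above the 4 WT libraries. Ratios were picked with the fold changes known and carry no test. Of 10 ratios between 2 genes 7 did not overlap and 3 did: E2f1 to E2f8 (up to 1.28 in WT, from 1.26 in mutants), Uhrf1 to Dnmt1 (up to 0.521 in WT, from 0.518 in mutants) and Pcna to Rfc4 (up to 7.67 in WT, from 7.01 in mutants). Orc1 was the scarcest member per length and was not called, at 3.32, 2.95, 4.30 and 3.67 CPM in WT and 4.65, 5.54, 4.28 and 3.79 CPM in mutants (0.36 ± 0.16, 95% interval -0.03 to 0.75, edgeR adjusted p = 0.16). Its interval is the widest of the 43, with 59 reads in its lowest library.

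**Figure D2:**
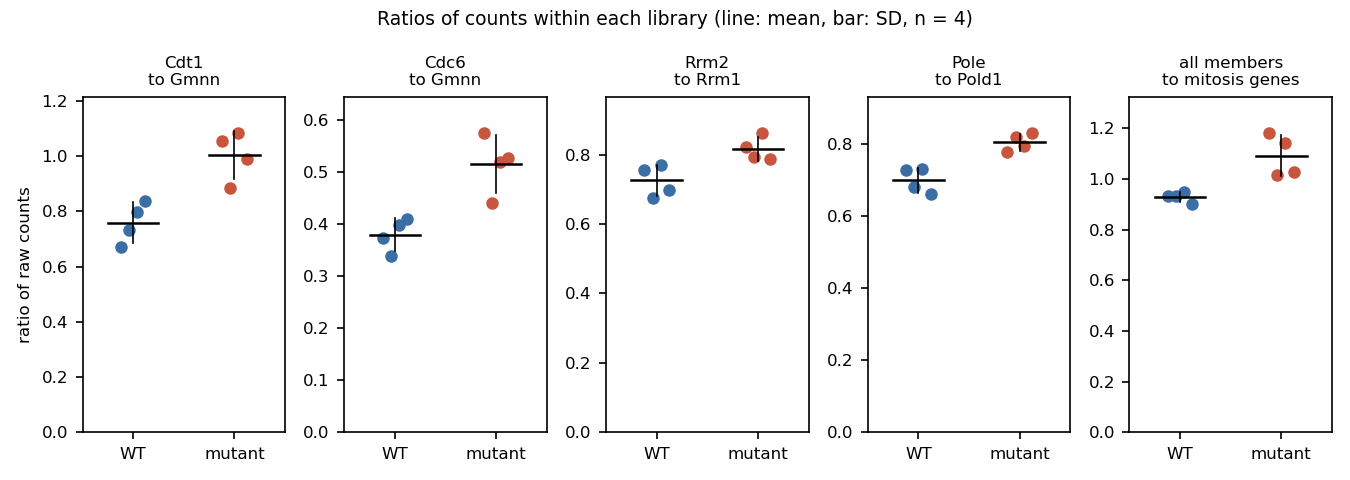
Ratios of raw counts within each library for 4 pairs of members and for the summed members over 20 mitosis genes, with 1 point per library, the mean as a line and the SD as a bar (n = 4 per genotype). In all 5 panels the 4 mutant points lie above the 4 WT points; the panels were chosen with these values known, and 3 other ratios that overlap are given in the text.

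Of the 8 polymerase and primase members 6 rose, and the 2 that did not pass the test are Pold1 and Pold2. In polymerase epsilon, which copies the leading strand, the catalytic subunit Pole was at 32.8, 31.4, 37.8 and 32.4 CPM in WT and 38.8, 45.4, 44.4 and 44.8 CPM in mutants. The groups did not overlap, and mutant replicate 1 was the lowest of its group (0.37 ± 0.07, edgeR adjusted p = 0.0019). Pole2, its accessory subunit, had the largest log2 fold change of the 43 genes (0.54 ± 0.10, edgeR adjusted p = 0.0017). It was at 7.13, 8.64, 7.67 and 8.17 CPM in WT and 10.7, 13.1, 11.4 and 10.8 CPM in mutants, a mean rise of 45.7% from a low level. For polymerase delta, which extends the lagging strand, neither the catalytic Pold1 nor the accessory Pold2 was called. Pold1 was at 45.04, 46.1, 51.6 and 48.99 CPM in WT and 49.8, 55.4, 55.7 and 53.9 CPM in mutants (0.16 ± 0.05, 95% interval 0.03 to 0.30, edgeR adjusted p = 0.061). It passed without WT replicate 3 or mutant replicate 1 (adjusted p = 0.032 and 0.027), and also with library totals, no filter or the airway score as a covariate (adjusted p from 0.014 to 0.039). Pold2 was at 42.1, 48.6, 50.7 and 48.4 CPM in WT and 46.5, 53.8, 54.3 and 49.2 CPM in mutants, with wide overlap (0.10 ± 0.06, 95% interval -0.05 to 0.26, edgeR adjusted p = 0.34). The ratio of Pole to Pold1 counts was 0.728, 0.681, 0.732 and 0.661 in WT and 0.778, 0.820, 0.796 and 0.831 in mutants, with no overlap. The small subunits outside the 43 genes did not divide by enzyme. Of the delta subunits Pold3 rose (0.19 ± 0.05, edgeR adjusted p = 0.022) and Pold4 was not called (-0.25 ± 0.11, edgeR adjusted p = 0.14). Of the epsilon subunits Pole3 rose (0.23 ± 0.06, edgeR adjusted p = 0.025) and Pole4 was not called (0.10 ± 0.05, edgeR adjusted p = 0.21). A difference between the enzymes was not tested. An interval here is for 1 gene and is not adjusted for the number of genes.

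All 4 subunits of polymerase alpha and primase rose. Pola1, the catalytic subunit, was at 22.03, 22.3, 25.9 and 21.5 CPM in WT and 25.6, 31.4, 26.5 and 30.8 CPM in mutants, where the lowest mutant library fell just under WT replicate 3 (0.32 ± 0.08, edgeR adjusted p = 0.015). Pola2 (0.20 ± 0.05), the small primase subunit Prim1 (0.27 ± 0.06) and the large one Prim2 (0.31 ± 0.08) lay without overlap (edgeR adjusted p from 0.0079 to 0.021). The call of Pola1 was lost without WT replicate 1 or 4 (adjusted p = 0.057 each), that of Prim2 without WT replicate 1 or mutant replicate 2 (0.053 and 0.056), and that of Pola2 without WT replicate 1 or mutant replicate 2 or 4 (0.056 to 0.073).

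PCNA, the ring that tethers the polymerases, was the most abundant member per length. Pcna (chromosome 2, 132249162 to 132253314 on GRCm38) was at 119.8, 129.8, 135 and 121 CPM in WT and 145, 162, 158 and 154 CPM in mutants. All mutant libraries exceeded all WT libraries (0.29 ± 0.05, a mean rise of 22.3%, edgeR adjusted p = 0.00088). Its annotated pseudogene Pcna-ps2 drew 129 reads over the 8 libraries together. Replication factor C opens the ring to load it. Its small subunit Rfc3 was at 13.9, 14.3, 16.96 and 14.3 CPM in WT and 17.6, 19.7, 17.9 and 18.2 CPM in mutants (0.30 ± 0.08, edgeR adjusted p = 0.016), and it failed the test when WT replicate 1 or 4 or mutant replicate 2 was dropped (adjusted p from 0.054 to 0.061). Rfc5 was at 24.04, 25.8, 24.4 and 26.1 CPM in WT and 27.8, 30.6, 29.6 and 30.03 CPM in mutants (0.24 ± 0.05, edgeR adjusted p = 0.0089), and neither gene's groups overlapped. The large subunit Rfc1 rose by a smaller amount (0.18 ± 0.04, edgeR adjusted p = 0.013, and 0.051 without mutant replicate 2). Rfc2 was not called, at 49.9, 51.4, 52.4 and 48.8 CPM in WT and 50.4, 55.7, 55.5 and 58.5 CPM in mutants (0.12 ± 0.05, edgeR adjusted p = 0.14, and 0.037 without mutant replicate 1). Rfc4 was not called either, at 16.3, 16.9, 19.5 and 18.1 CPM in WT and 20.8, 20.1, 20.2 and 18.9 CPM in mutants (0.18 ± 0.07, edgeR adjusted p = 0.12). The 5 subunits form 1 complex, and their log2 fold changes ran from 0.12 to 0.30 with overlapping standard errors for neighbours in that order.

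Of the members that protect single strands and finish the lagging strand, 4 of 4 rose. Rpa2, a subunit of the single-strand binding protein RPA, was at 27.9, 29.4, 26.9 and 25.8 CPM in WT and 35.2, 39.3, 35.4 and 33.6 CPM in mutants, with a clear gap between the genotypes (0.38 ± 0.06, edgeR adjusted p = 0.00062). Its partner Rpa1 rose too (0.24 ± 0.04, edgeR adjusted p = 0.0018), while the third subunit Rpa3, which is not among the 43, was not called (0.13 ± 0.07, edgeR adjusted p = 0.22). The subunits of RNase H2, which removes RNA from DNA, are not among the 43 either and none was called (Rnaseh2a 0.06 ± 0.08, Rnaseh2b 0.09 ± 0.07, Rnaseh2c 0.11 ± 0.06). Lig1, the ligase that seals Okazaki fragments, was at 59.02, 57.8, 62.2 and 62.05 CPM in WT and 66.4, 80.6, 79.3 and 77.8 CPM in mutants (0.34 ± 0.06, edgeR adjusted p = 0.0013). Fen1, the nuclease that trims their flaps, was at only 4.84, 4.69, 5.04 and 5.67 CPM in WT and 6.07, 7.21, 7.99 and 7.004 CPM in mutants (0.48 ± 0.12, edgeR adjusted p = 0.013), and neither gene's groups overlapped. For Fen1 78.8% of the counted exon length is shared with Gm10143 on the other strand, and the part of that overlap in its level was not tested.

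In nucleotide supply 3 of 5 genes rose, both subunits of ribonucleotide reductase among them. This enzyme makes deoxynucleotides from ribonucleotides, and its RRM2 subunit is the one made mainly in S phase. Rrm2 was at 112, 109, 129.7 and 112 CPM in WT and 133, 164, 167 and 157 CPM in mutants, with mutant replicate 1 just above the highest WT library (0.42 ± 0.08, edgeR adjusted p = 0.0081). The large subunit Rrm1 was at 149, 161, 168 and 161 CPM in WT and 162, 207, 193 and 199 CPM in mutants, where mutant replicate 1 lay inside the WT range (0.25 ± 0.07, edgeR adjusted p = 0.037). It failed the test when any library but WT replicate 3 or mutant replicate 1 was left out (adjusted p from 0.073 to 0.12). The ratio of Rrm2 to Rrm1 counts was 0.757, 0.676, 0.770 and 0.699 in WT and 0.820, 0.792, 0.861 and 0.787 in mutants. Dut, which removes dUTP, was at 38.7, 44.1, 44.4 and 39.7 CPM in WT and 46.96, 53.1, 50.8 and 51.5 CPM in mutants without overlap (0.28 ± 0.06, edgeR adjusted p = 0.0047). The 2 members that make thymidylate did not pass. Tyms, the thymidylate synthase, was at 20.2, 20.98, 20.2 and 19.8 CPM in WT and 21.4, 25.9, 23.3 and 22.8 CPM in mutants, with no overlap but an edgeR adjusted p of 0.053 (0.20 ± 0.07, and 0.028 without mutant replicate 1). Tyms did pass with RLE, upper quartile or total-count scaling, with no filter or one of 1 CPM in 4 libraries, and with the airway score as a covariate (adjusted p from 0.013 to 0.049). Tk1, the salvage thymidine kinase, was at 49.1, 51.5, 55.5 and 54.3 CPM in WT and 52.9, 62.99, 56.8 and 53.7 CPM in mutants and overlapped (0.11 ± 0.06, 95% interval -0.04 to 0.25, edgeR adjusted p = 0.28).

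Chromatin assembly and maintenance of DNA methylation rose in 4 of 5 genes. Chaf1a, the large subunit of the histone chaperone CAF-1 that acts behind the fork, was at 25.2, 24.1, 27.99 and 25.9 CPM in WT and 31.2, 34.6, 37.4 and 34.8 CPM in mutants (0.42 ± 0.06, edgeR adjusted p = 0.00056). Chaf1b was at 13.8, 13.9, 16.4 and 13.998 CPM in WT and 15.5, 20.9, 19.2 and 16.98 CPM in mutants and overlapped (0.32 ± 0.09, edgeR adjusted p = 0.035). It too failed when WT replicate 1, 2 or 4 or mutant replicate 2 or 3 was left out (adjusted p from 0.090 to 0.11). Uhrf1, which reads hemimethylated CpG sites and brings in DNMT1, was at 64.3, 66.5, 81.1 and 69.05 CPM in WT and 86.5, 100.5, 94.5 and 96.04 CPM in mutants (0.43 ± 0.07, edgeR adjusted p = 0.0031). Dnmt1, the maintenance methyltransferase, rose with it, from 143 ± 8.53 CPM in WT to 175 ± 7.12 CPM in mutants (mean ± SD, n = 4, 0.29 ± 0.05, edgeR adjusted p = 0.00073). Slbp, which binds the stem-loop of replication-dependent histone mRNA, had the smallest log2 fold change of all 43 genes. It was at 41.4, 44.9, 42.6 and 42.6 CPM in WT and 45.1, 46.5, 43.01 and 45.2 CPM in mutants, with overlap (0.07 ± 0.05, 95% interval -0.05 to 0.18, edgeR adjusted p = 0.39).

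Among the E2F factors the activator E2f1 and both E cyclins rose. E2f1 was at 34.1, 37.3, 42.3 and 39.7 CPM in WT and 44.4, 50.8, 48.6 and 52.2 CPM in mutants, with every mutant library above the WT range (0.35 ± 0.07, edgeR adjusted p = 0.0032). Another activator, E2f2, was scarcer and overlapped, at 12.5, 11.1, 14.5 and 11.9 CPM in WT and 12.99, 14.9, 14.3 and 16.4 CPM in mutants. E2f2 was not called (0.23 ± 0.09, edgeR adjusted p = 0.13, and 0.049 without WT replicate 3). The factor E2f3, which is not a member, was not called either (-0.04 ± 0.06, edgeR adjusted p = 0.79). It was at 43.95, 42.05, 40.7 and 39.3 CPM in WT and 46.2, 40.01, 38.6 and 37.1 CPM in mutants, with overlap. The atypical factors E2F7 and E2F8, which repress E2F targets, were not called. E2f7 was at 19.9, 21.6, 24.9 and 22.1 CPM in WT and 20.7, 30.2, 26.97 and 23.9 CPM in mutants (0.20 ± 0.11, 95% interval -0.07 to 0.48, edgeR adjusted p = 0.3). E2f8 was at 29.3, 29.1, 34.8 and 31.8 CPM in WT and 32.1, 40.3, 34.9 and 35.9 CPM in mutants (0.20 ± 0.07, edgeR adjusted p = 0.098), and passed without WT replicate 3 or mutant replicate 1 (0.038 and 0.040). It also passed with library totals or with no filter, and E2f7 passed with no filter. Cyclin E drives CDK2 at the entry to S phase. Ccne1 was at 12.7, 14.1, 14.9 and 12.2 CPM in WT and 15.95, 18.7, 20.7 and 17.7 CPM in mutants, and Ccne2 at 22.7, 21.2, 28.5 and 22.1 CPM in WT and 30.1, 30.4, 31.6 and 29.3 CPM in mutants. Neither overlapped (0.44 ± 0.09 and 0.36 ± 0.08, edgeR adjusted p = 0.0046 and 0.0089), although WT replicate 3 came close to the mutants for Ccne2.

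The 3 fork protection genes rose as well. TIMELESS and TIPIN form a pair that travels with the fork, and claspin links the stalled fork to the checkpoint kinase CHK1. Timeless was at 22.03, 24.1, 26.9 and 24.8 CPM in WT and 32.7, 33.8, 35.4 and 33.3 CPM in mutants (0.47 ± 0.06, edgeR adjusted p = 0.00016). Clspn was at 26.003, 24.97, 29.5 and 24.9 CPM in WT and 29.8, 37.2, 35.5 and 34.8 CPM in mutants (0.38 ± 0.07, edgeR adjusted p = 0.0031). Tipin was at 21.1, 23.2, 20.2 and 17.6 CPM in WT and 25.2, 26.7, 26.2 and 24.5 CPM in mutants (0.32 ± 0.07, edgeR adjusted p = 0.01). None of the 3 overlapped between the genotypes.

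**Figure D3:**
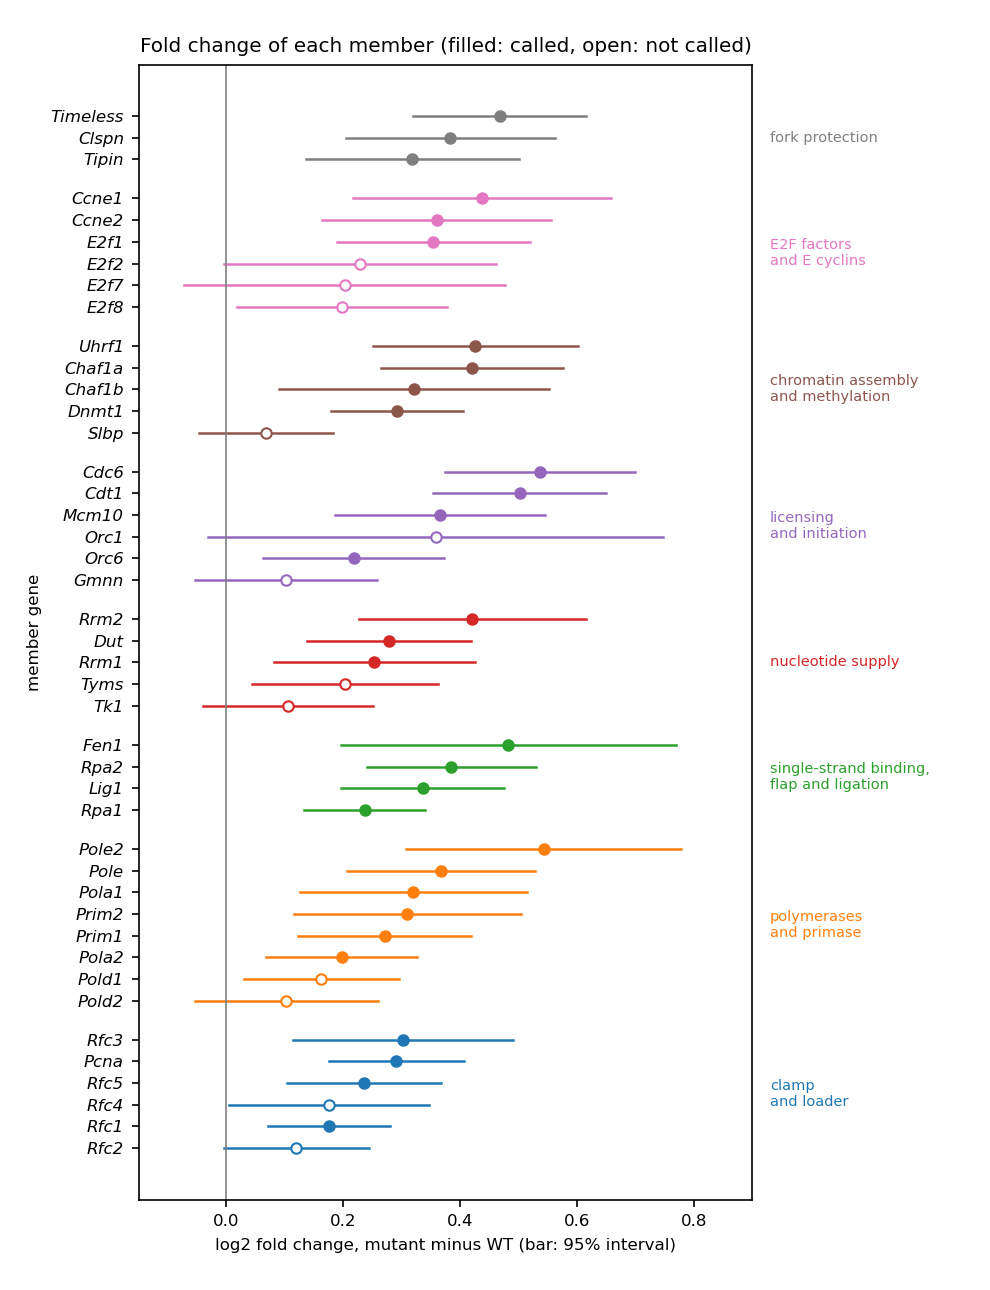
Log2 fold change (mutant minus WT) of each of the 43 members with its 95% interval, grouped and coloured by role, with filled points for the 31 called genes and open points for the 12 not called. All 43 points lie to the right of 0, from 0.07 for Slbp to 0.54 for Pole2 and Cdc6.

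By role, the count of called members was 4 of 4 for single-strand binding, flap and ligation, 3 of 3 for fork protection, 4 of 5 for chromatin assembly and methylation, 6 of 8 for polymerases and primase, 4 of 6 for the clamp and its loader, 4 of 6 for licensing and initiation, 3 of 5 for nucleotide supply, and 3 of 6 for E2F factors and E cyclins. The median log2 fold change ran from 0.21 in the clamp and its loader to 0.38 in fork protection. Whether the roles differ from each other was not tested. The summed level of the 43 genes was 1651 to 1858 CPM in WT and 1950.1 to 2229 CPM in mutants. For nucleotide supply (369 to 418 and 416 to 513 CPM) and for E2F factors and E cyclins (131 to 159.9 and 156 to 185 CPM) the summed levels met at WT replicate 3 and mutant replicate 1, and for the other roles they did not overlap.

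Levels compared per length show how unequal the members are. In WT hearts Pcna was at 52.7 CPM per kb of exon and Rrm2 at 41.8, followed by Gmnn at 25.4 and Pold2 at 25.02 CPM per kb. At the lower end lay Prim2 at 1.72, Mcm10 at 1.58 and Orc1 at 1.02 CPM per kb. Subunits of the same complex differed too, with Pold2 above its catalytic partner Pold1 at 9.87, and Pola2 at 9.94 above Pola1 at 2.60 CPM per kb. Exon length here is the union over all transcripts, so an isoform with a short 3′ end is set too low.

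**Figure D4:**
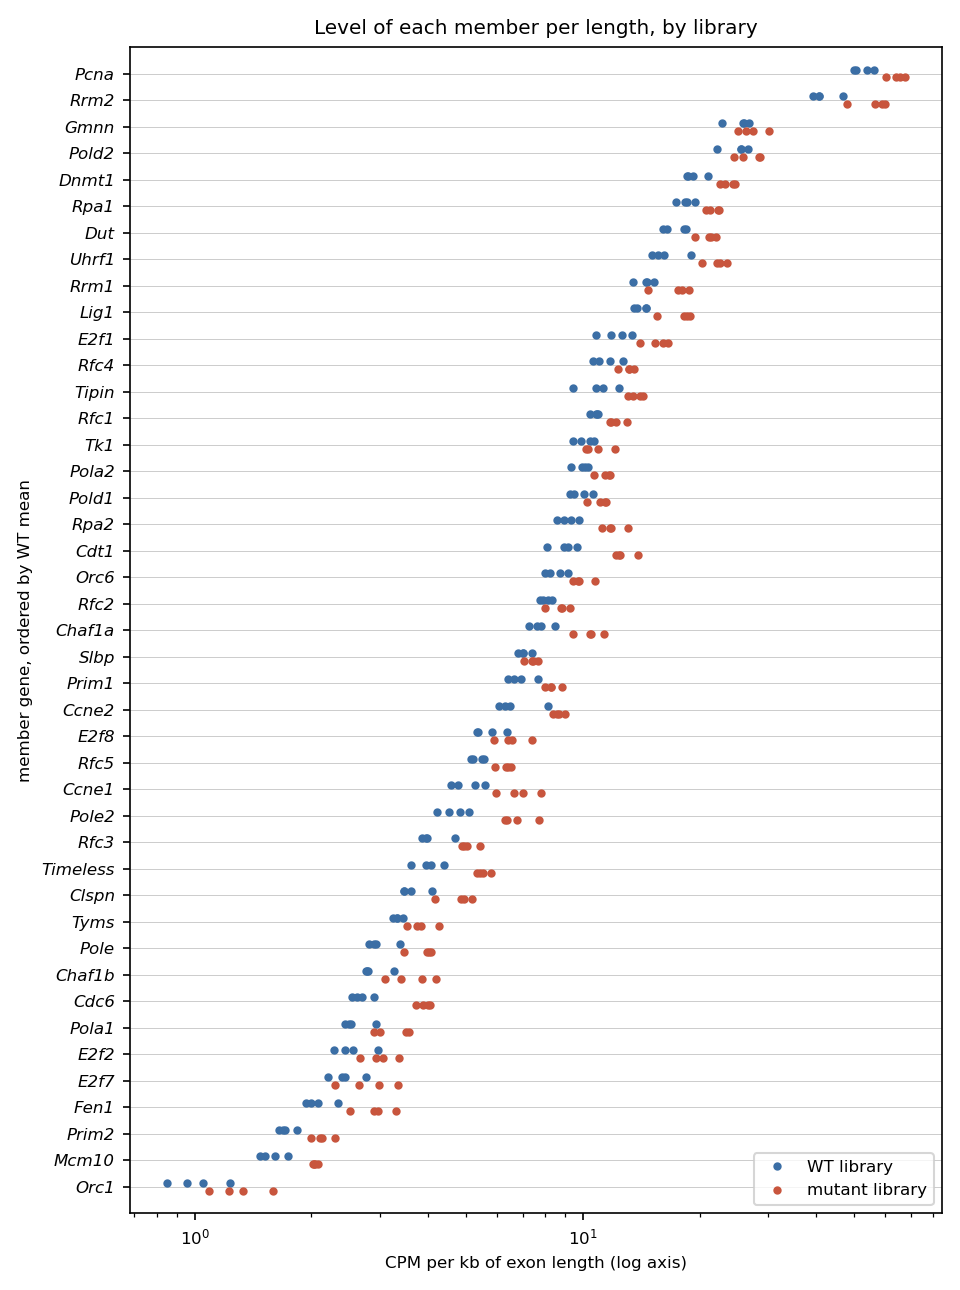
Level of each member in CPM per kb of exon length on a log axis, ordered by the WT mean, with 1 point per library (blue WT, red mutant). Levels span from about 1.02 (Orc1) to 52.7 CPM per kb (Pcna) in WT means, while the shift between genotypes is small beside that range.

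Other genes of the same pathway were counted apart, and no difference between lists was tested. Of 73 further genes for replication, nucleotide supply, chromatin assembly, the replication checkpoint and the E2F network, 28 rose and none fell, with a median log2 fold change of 0.12. Of the 73, 62 had a positive log2 fold change, as did 8185 of all 16372 tested genes. Over all tested genes 5.75% rose and 7.49% fell. By list the median was 0.17 for replication, 0.07 for nucleotide supply and 0.19 for chromatin assembly and methylation. It was 0.02 for the replication checkpoint and 0.07 for the E2F network. Among 26 other replication genes 10 rose, led by Wdhd1, which couples polymerase alpha to the helicase (0.53 ± 0.06, edgeR adjusted p = 7.8e-05), Topbp1 (0.31 ± 0.05) and the PCNA unloader Atad5 (0.46 ± 0.08). Of 18 other genes of nucleotide supply 7 rose, among them the thymidylate kinase Dtymk (0.23 ± 0.05) and the deoxycytidine kinase Dck (0.32 ± 0.07). Of 9 other genes of chromatin assembly and methylation 4 rose, with the chromatin remodeller Hells (0.50 ± 0.05, edgeR adjusted p = 4.9e-05) and the histone chaperones Nasp (0.36 ± 0.04) and Asf1b (0.30 ± 0.06). Of 9 replication checkpoint genes 3 rose, namely the kinases Wee1 (0.43 ± 0.05) and Chek1 (0.53 ± 0.07) and the phosphatase Cdc25a (0.19 ± 0.05). Of 11 other genes of the E2F network 4 rose: the pocket proteins Rbl1 (0.40 ± 0.06) and Rb1 (0.20 ± 0.06), the E2F partner Tfdp1 (0.16 ± 0.04) and Cdk2 (0.16 ± 0.04).

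The helicase genes, nearest to these in role, and the genes of mitosis, a later phase, were read in the same libraries. Of 11 genes of the replicative helicase 9 rose, where 5.75% of all tested genes did, with a median log2 fold change of 0.41 and Mcm5 at 0.50 ± 0.06. Of 20 mitosis genes none rose and 1 fell (Ube2c, -0.22 ± 0.06), where 7.49% of all tested genes fell, with a median of 0.03. Exons of Ube2c overlap those of Tnnc2, which drew 15 reads over all libraries together against 14090 for Ube2c. Summed mitosis transcripts were at 1768 to 1956 CPM in WT and 1652 to 2190.3 CPM in mutants, so both the lowest and the highest library was a mutant one. The count of the 43 members over that of the 20 mitosis genes was 0.934, 0.932, 0.950 and 0.903 in WT and 1.18, 1.02, 1.14 and 1.03 in mutants. The lowest mutant ratio was above the highest WT ratio, and mutant replicate 1, lowest among the mutants in most members, had the highest ratio. The difference between the lists was not tested.

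Exons of 16 of the 43 members overlap those of another gene, in all but Rpa1 on the other strand, and no source used here says whether counting used strand. The largest shares of exon length after Fen1 were 18.7% for Chaf1a with Ubxn6, 17.4% for Ccne2 with Ints8, 15.1% for Rfc2 with Lat2 and 12.7% for Rfc4 with Eif4a2. Without strand, reads of such a gene and its neighbour cannot be told apart.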

How the data were processed

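RNA from hearts went into 8 TruSeq libraries (4 WT, 4 mutant), per the labels' protocols. The submitters' processing notes list Trimmomatic 0.36, STAR 2.5.2b, featureCounts, Subread 1.5.2 and the build GRCm38. The authors deposited raw counts for each gene, identical in the series-wide table and the files per library. Headers of all 8 files begin with "Male", per the file headers. For strand setting and annotation release: not given in the sources used here.

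Symbols came from GENCODE M21 for 48970 of 49315 genes (1 listed marker, Ahsp, had no match). Genes were kept by filterByExpr (minimum count 10), scaled by TMM and tested over all 16372 genes with edgeR 4.0.16 (robust quasi-likelihood, no covariate, R 4.3.3) and Benjamini-Hochberg adjustment. 95% intervals use 6 residual degrees of freedom. The test was checked on simulated counts. The members, the lists and the alternatives were chosen with earlier results of these data known. All members are accounted for. Values per library are given for Pcna, for up to 3 called members per role by size of change and for each member not called, and up to 3 called genes per pathway list are named by adjusted p. Rb1 and E2f3 were named beside that rule, after their values were seen. Further subunits of polymerase delta, polymerase epsilon, RPA and RNase H2 were also named beside it. A gene of nucleotide supply that the rule would name is not reported here. Alternatives were DESeq2 1.42.0, limma-voom (limma 3.58.1), other scalings, filters and thresholds, each library left out, the replicate number as a block, covariates and subsets by airway RNA. Pairs of libraries within a genotype differed beyond sampling noise (chi-square over its degrees of freedom from 2.87 to 9.18), so each was counted as its own sample; this does not show that each came from its own heart. Sequences are from RefSeq.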

Additional observations from a re-analysis of the deposited data

Results flagged for a closer look

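Among 140 groups of 4 libraries examined (members, summed lists and ratios), 4 held a library far from the other 3, and chance gives about 1 in 20. Rfc3 in WT replicate 3 was at 16.96 CPM, above the next WT library at 14.3 CPM. Chaf1b in WT replicate 3 was at 16.4 CPM, also above the other 3. Pole in mutant replicate 1 was at 38.8 CPM, below the next mutant library at 44.4 CPM. Cdt1 in mutant replicate 3 was at 43.5 CPM, above the next at 39.1 CPM.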

How the results depend on the processing

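All 43 members kept a positive log2 fold change under every alternative run, and no member was called lower under any of them. The median of the members lay between 0.25 and 0.35. Of the 31 called members, 23 stayed called without each of the 8 libraries in turn. The number of members called moved by over 1.5 times with the erythroid score (15) or Xist (4) as a covariate and in the 3 libraries with little Scgb3a2 (16). Over all genes, 942 were higher and 1226 lower. With library totals 1856 were higher, which put 68.4% of the calls on the higher side against 43.5% with TMM, and 36 members were then called. With the erythroid score 516 were higher, with Xist 137 higher and 185 lower, in the 5 libraries with Scgb3a2 609 higher, in the other 3 libraries 595 higher and 812 lower, and at an adjusted p under 0.01 392 higher and 644 lower. Leaving out each library gave from 579 (without WT replicate 1) to 850 higher. A stricter threshold lowers counts by construction, and the cause of the other shifts was not tested.

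Libraries with the same replicate number did not all deviate together (correlations of -0.52, 0.77, 0.56 and 0.10 for numbers 1 to 4). Not every library correlated best with its own number. These values cannot tell whether the numbers mark pairs, such as litters. With the replicate block 33 members (Pold1 and Tyms gained, adjusted p = 0.030 and 0.044), 1023 genes higher and 1432 lower were called, and the members' median was 0.31. Counts were low for Orc1 and Fen1, with 59 and 89 reads in their lowest libraries.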
